A study of Mus musculus with 3 samples.

Results

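The samples described here were the arrays titled P55 and P69, 2 of the 3 arrays of the series, chosen by their titles and compared with each other across all genes. Each array carried RNA of skin macrophages (CD11b+Gr1-F4/80+) sorted from digested back skin of CD1 mice, an outbred stock, in the later part of telogen, the resting stage of the hair follicle. The titles give the age of the mice in postnatal days, 55 and 69. The P55 array (mid telogen, Tm) and the P69 array (late telogen, Tl) each held a single pool of 3 littermates. The P42 array, labelled postnatal day 42, is given only as a further level beside them. It is taken as the study's early telogen (Te), for which the paper's text gives another day. No array carried a treatment or a gene deletion, and all groups shared the sort and the mouse stock. With 1 array per stage there is no test, no p-value and no replicate error, and litter, genotype within the outbred stock, dissection and age cannot be told apart. A difference below is the log2 level on the P69 array minus that on the P55 array, each level being the log2 intensity over the 75th percentile of its array.

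The direction follows the scanner files. The value table deposited with the series held the same differences with the opposite sign, so the scanner files of P55 and P69 are exchanged in it. Over 36383 probes the difference of the table's columns and that of the scanner files had a correlation of -1, and the sum of both had an SD of 4.06e-07. If the table is right and the scanner files are exchanged, every "higher on P69" below reads "higher on P55".

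Dermal macrophages of the resting skin take up dead cells and debris, present antigen, and sense microbial products and interferon. Telogen is the stage in which the hair shaft is complete, the lower follicle has regressed, and stem cells of the bulge wait for Wnt signals to outweigh BMP signals before a new growth phase begins. Keratins of the hair shaft and of the inner root sheath are made by differentiating epithelial cells of the growing follicle, not by macrophages.

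The P69 array was the brighter of the pair. Its 75th percentile was 927 intensity units, compared to 497 on the P55 array, and 68.7% of the 55681 probes were well above background on it, compared to 59.6% on P55 and 71.4% on P42. On both arrays 31931 probes were above background, on P69 alone 6324 and on P55 alone 1274. For a probe above background on 1 array alone, the difference is given as a bound. It was set against the lowest level above background on the other array (-4.04 on P55 and -5.10 on P69), or against its own signal there if that was higher. A probe above background on P55 alone, with a P69 signal under -5.10, was thus called 2-fold lower at any level. On P69 alone, a probe was called 2-fold higher only if it lay 2-fold above the P55 floor. Counts of lower genes below include such fixed calls. Repeated spots of a probe on the same array varied by a median SD of 0.11 on P55 and 0.12 on P69, which gives 0.16 for a difference. This covers the spread between spots only.

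The difference moved with the brightness of the probe. With the probes above background on both arrays ordered by mean level, the median difference lay between -0.02 and 0.02 in deciles 2 to 6. It was -0.19 in decile 8, -0.36 in decile 9 and -0.73 in decile 10, the brightest. In decile 1, the dimmest, it was -0.39, with 21.7% of probes at least 2-fold lower and 2.16% higher, so dim decreases are also to be read with care. The median over all 14849 genes with a value was -0.15. A loess scaling that removes this bend placed it at 0.09, and values without any scaling at 0.72. For bright genes named as past 2-fold that fell within it after loess, the loess value is therefore given beside the value on the 75th percentile. Others, dim genes among them, are listed together where the dependence on processing is described.

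**Figure D1:**
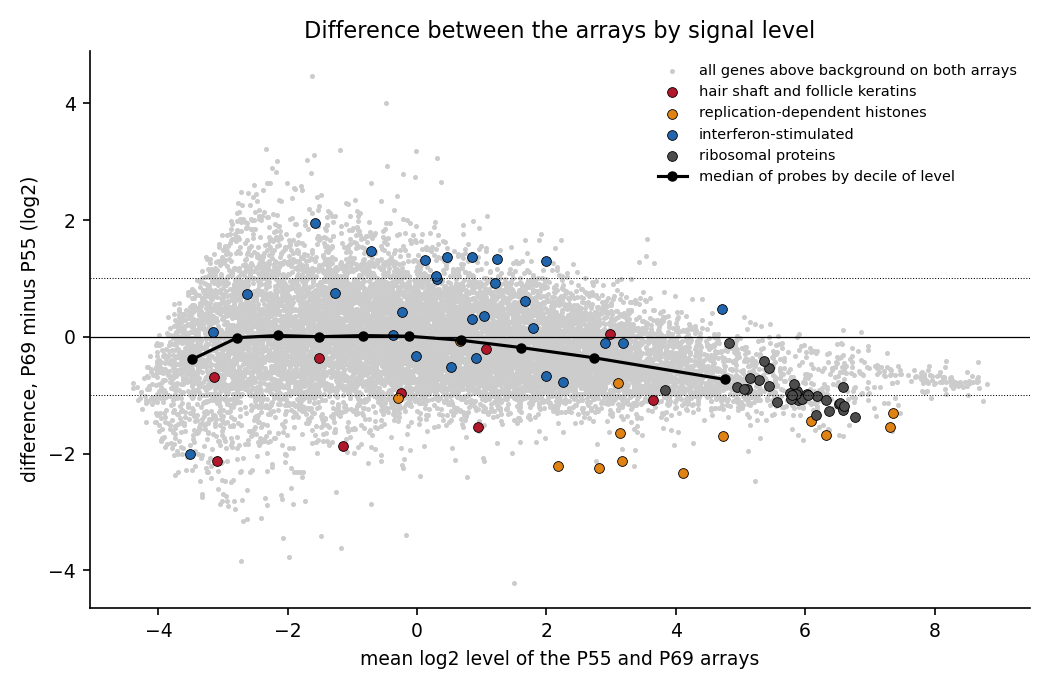
Difference P69 minus P55 (log2, y axis) against the mean log2 level of both arrays (x axis) for genes above background on both arrays (grey), with members of 4 gene lists in colour. The black line joins the median differences of the probes by decile of level, from -0.39 in the dimmest to -0.73 in the brightest decile; the ribosomal protein genes lie along its bright end, while histones and hair keratins lie below it and most interferon-stimulated genes above it.

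The sorted cells carried macrophage transcripts on both arrays. All 15 macrophage identity genes found on the array were above background on P55 and on P69. Adgre1, which encodes the F4/80 antigen of the sort, stood at 4.83 on P42, 5.51 on P55 and 5.15 on P69, a difference of -0.36 that turned to 0.38 under loess. Itgam, which encodes CD11b, stood at 8.95, 8.73 and 7.85, a difference of -0.87 by its brightest probe and of 0.16 under loess, and its other probes gave 0.27 and 0.95. Neither sort marker thus had a settled direction between the arrays. Spi1, Csf1r, Lyz2 and Aif1 lay between -0.83 and 0.02, and Csf1r turned from -0.54 to 0.32 under loess.

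Among macrophage genes, those that differed by more than 2-fold were few. Of 15 identity genes, 2 were higher on P69 (13.3%, compared to 7.85% of all genes with a value) and 1 was lower (6.67%, compared to 11.3% of all genes). Maf, a transcription factor of resident macrophages, stood at 2.66 on P42, 0.84 on P55 and 2.49 on P69, a difference of 1.65. Mertk, a receptor for the uptake of apoptotic cells, stood at 0.39, -0.61 and 0.89, a difference of 1.50. Tyrobp, the adaptor of many activating receptors, stood at 7.32 on P55 and 6.19 on P69 (-1.12), in the range of level in which most probes were lower, and after loess it was within 2-fold (-0.24). In the list of resident dermal macrophage genes (12 with a value, median 0.42), 2 were at least 2-fold higher on P69 (16.7%, compared to 7.85% of all genes) and none was lower by that much. These were Lyve1, the hyaluronan receptor of perivascular macrophages, at -1.98, -1.88 and 0.01, and Timd4, a phosphatidylserine receptor, at -0.64, -1.08 and 0.36. The median of this list lay above that of all genes by 0.57 on the 75th percentile, 0.74 after quantile normalization and 0.67 after loess.

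Across all genes, 1166 of 14849 were at least 2-fold higher on P69 (7.85% of genes with a value) and 1676 were at least 2-fold lower (11.3%), while 12007 stayed within 2-fold. Counts of list and family members below are to be read beside these shares, also where they are not repeated. Which direction prevailed depended on the scaling. The higher genes made up 41.0% of those calls on the 75th percentile, 49.3% after quantile normalization (1262 higher, 1297 lower), 58.4% on the 75th percentile of probes above background on both arrays (1582 and 1127), 64.7% after loess (1777 and 969) and 95.0% without scaling (5589 and 296). Of the medians of 57 gene lists, 17 lay above 0 under all 6 scalings, and 6 lay below 0 under all of them, those of the hair keratins, histones, red cell, glycolysis, ribosomal protein and MHC class II genes. The other medians given below turned sign under at least 1 scaling, mostly without scaling, so list directions are read relative to the median of all genes. By that measure 19 lists were higher and 25 lower under all 6 scalings. Scaling to the 75th percentile of all probes or of those above background on both arrays, to the median, or not at all shifts differences by a constant. Reading relative to the median of all genes largely cancels such a shift. Of the 6, only quantile normalization and loess could therefore move a list much by that measure.

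At the 10-fold threshold that the study used, 16 of 36668 probes were higher on P69 (0.0436%) and 64 were lower (0.175%). Of these, 12 and 48 are bounds. Loess scaling turned this balance to 44 higher and 31 lower. The 16 higher probes named 10 genes, and 5 carried no current gene symbol. Of the 64 lower probes, 34 named a gene, 17 were designed to noncoding loci and 13 to transcripts without a current symbol.

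Immune receptors and interferon-inducible genes led the increases. Mndal, an interferon-inducible gene of the p200 family, stood at 1.30 on P42, was not above background on P55 (-5.28) and stood at 0.99 on P69, a difference of at least 5.03. Ifit3b, of the same response, stood at -0.79, -3.85 and 0.61, a difference of 4.47. Klra8, an Ly49 receptor of natural killer cells, stood at 1.07, -2.49 and 1.52, a difference of 4.01, and its other probe differed by 4.99. In all 3 genes P55 was the low array, and P42 lay nearer to P69. Further bounds were 4.53 for Skint3, a relative of the Skint1 selecting element of epidermal T cells, 4.40 for Klra6, 4.02 for Cd1d1, which presents lipids to natural killer T cells, and 3.85 for Gucy1a1, a subunit of soluble guanylate cyclase.

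Among genes above background on both arrays, the next largest increases on P69 were 3.21 for Slit3, a guidance ligand, 3.20 for Prom1, 3.18 for Gm3219, 3.11 for Tfec, a transcription factor of the Mitf family, and 3.07 for Klra9. Rab11fip2 (3.03), Dis3 (3.01), Cd200 (2.93), Dnajc28 (2.82), Ets1 (2.79), Atp1b1 (2.73), Sfrp2 (2.65) and Thsd4 (2.64) followed. Cd200, the ligand of an inhibitory receptor on myeloid cells, stood at -0.69 on P42, -1.93 on P55 and 1.00 on P69. Ets1, a lymphoid and endothelial transcription factor, stood at 0.34, -1.61 and 1.18. Most of these genes rest on 1 probe.

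The decreases were led by genes of the follicle. Krt35, a hair shaft keratin, was not above background on P42 (-5.08), stood at 0.60 on P55 and was not above background on P69 (-6.56) (at least -5.70). Krt71, a keratin of the inner root sheath, stood at -0.58 on P55 and was at least 4.52 lower on P69. Other bounds were 4.42 lower for Plppr1, 4.19 for Npy, which encodes neuropeptide Y, and 4.18 for Mdga1.

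Of genes above background on both arrays, Gdpd3 was lowest relative to P55, at -0.85 on P42, 3.61 on P55 and -0.60 on P69, a difference of -4.21. Mbl2, which encodes a mannose-binding lectin, followed at -3.84, and then Prr9 at -3.78 and Dlx3, a homeobox factor needed for hair formation, at -3.62. Prr9 stood at -2.97, -0.09 and -3.87, and Dlx3 at -3.13, 0.63 and -2.99. The others of the 15 largest decreases were Fnbp4 (-3.45), Fn3krp (-3.42), Ccdc15 (-3.40), Krtap8-1 (-3.15), Fbxo44 (-3.12), Tlr11 (-3.10), Krt78 (-2.95), Col8a2 (-2.89), Adamdec1 (-2.88), Tspan10 (-2.87) and Omp (-2.86). Krt78 and Adamdec1 rest on 2 probes each, the other genes of this paragraph on 1. P42 lay nearer to P69 than to P55 for Gdpd3, Mbl2, Prr9 and Dlx3. It lay nearer to P55 for Tlr11 (-0.60 on P42, -0.86 on P55 and -3.96 on P69) and Omp (-1.24, -0.48 and -3.35).

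Keratins of the hair shaft and follicle, listed together with trichohyalin, were mostly lower on P69. Of 23 on the list, 20 were on the array and 14 had a value. Of these 14, 9 were measured on both arrays and 5 were above background on P55 alone, so that these 5 had a value only through the array on which they were high. At least 2-fold lower were 9 of the 14 (64.3%, compared to 11.3% of all genes), 4 of them measured on both arrays, and none was higher by that much. For Krt35, Krt71, Krt25 and Krt75, above background on P55 alone and under the P69 floor, the 2-fold call was fixed by the floors. The median was -1.65 with the bounds and -0.96 over the measured members. Krt25, an inner root sheath keratin, stood at -6.57 on P42, -1.62 on P55 and -7.28 on P69, above background on P55 alone, a difference of at least -3.48. Krt27, another inner root sheath keratin, stood at -4.33, -1.91 and -4.74 (at least -2.83), and Krt73 at 0.05, -0.21 and -2.09 (-1.88). Tchh, which encodes trichohyalin of the inner root sheath, stood at -6.48 (not above background on P42), -2.04 and -4.16, a difference of -2.13. Thus Krt35, Krt71, Krt25 and Krt27 were above background on P55 and not on P69, as was Krt75 of the companion layer (at least -1.74). Krt31 was above background on P69 alone, at -4.28 and too dim for a bound. Krt17 (-1.55) and Krt79 (-1.08, loess -0.59) were the other members lower by 2-fold, while Krt81 (-0.21), Krt72 (-0.37) and Krt80 (0.04) hardly differed. Among the hair shaft keratins with a value, Krt35 alone was lower by 2-fold, and as a bound, with Krt32 at -0.68 and Krt81 at -0.21. Another 6 listed hair keratins on the array (Krt31, Krt33a, Krt33b, Krt34, Krt84 and Krt86) gave no value, with signals at or near background. The list stayed lower than the median of all genes under each of the 6 scalings, by between 1.05 (loess) and 1.68 (quantile normalization).

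Some differentiation genes outside that list were also lower. Of 19 genes of barrier lipid synthesis with a value, 4 were lower by 2-fold (21.1%, compared to 11.3% of all genes), with a median of -0.61. Another 2 were higher (10.5%, compared to 7.85%), among them Cers3 (at least 1.95). Aloxe3, an epidermal lipoxygenase of the barrier, stood at -5.58 (not above background on P42), 0.07 and -2.58 (-2.65). Klk5, a serine protease that sheds the cornified layer, stood at -1.77 on P55 and was not above background on P69 (at least -3.33). Of 20 genes of the suprabasal and cornified layers with a value, Krt78, Sprr1a (-1.54), Krt77 (-1.27) and Sbsn (-1.08, loess -0.70) were lower by 2-fold, and Lce1m (2.18) and Lor, which encodes loricrin (1.13), were higher. Of 14 epidermal proteases and serpins with a value, 5 were lower by 2-fold (35.7%, compared to 11.3% of all genes), among them St14 (-1.39), Cst6 (-1.42), Spink5 (-1.20) and Serpinb12 (at least -1.61), and Serpinb5 was higher (1.05). Mlana (-2.80) and Tyr (-1.31), which serve pigment synthesis, were the members lower by 2-fold among 8 melanocyte genes with a value, of which 5 lay below 0, and Dct, of the same pathway, was 0.78 higher. Markers of the basal epidermis differed less. Of 15 basal keratinocyte genes, Sfn alone was lower by 2-fold (-1.29), and Krt5 stood at 1.58, 5.55 and 4.91, Krt14 at 1.22, 4.35 and 4.09, and Krt15 at 0.63, 4.54 and 3.98. Keratinocyte transcripts were thus present on both later arrays in sorted macrophages. Basal genes had a median difference of -0.18 (10 of 15 below 0, loess median 0.24). Suprabasal and cornified genes had a median of -0.57 (16 of 20 below 0, loess median -0.35). The part of keratinocyte transcripts in the difference of the hair keratins was not tested. In these bulk samples, fewer cells of a type and less RNA per cell cannot be told apart.

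**Figure D2:**
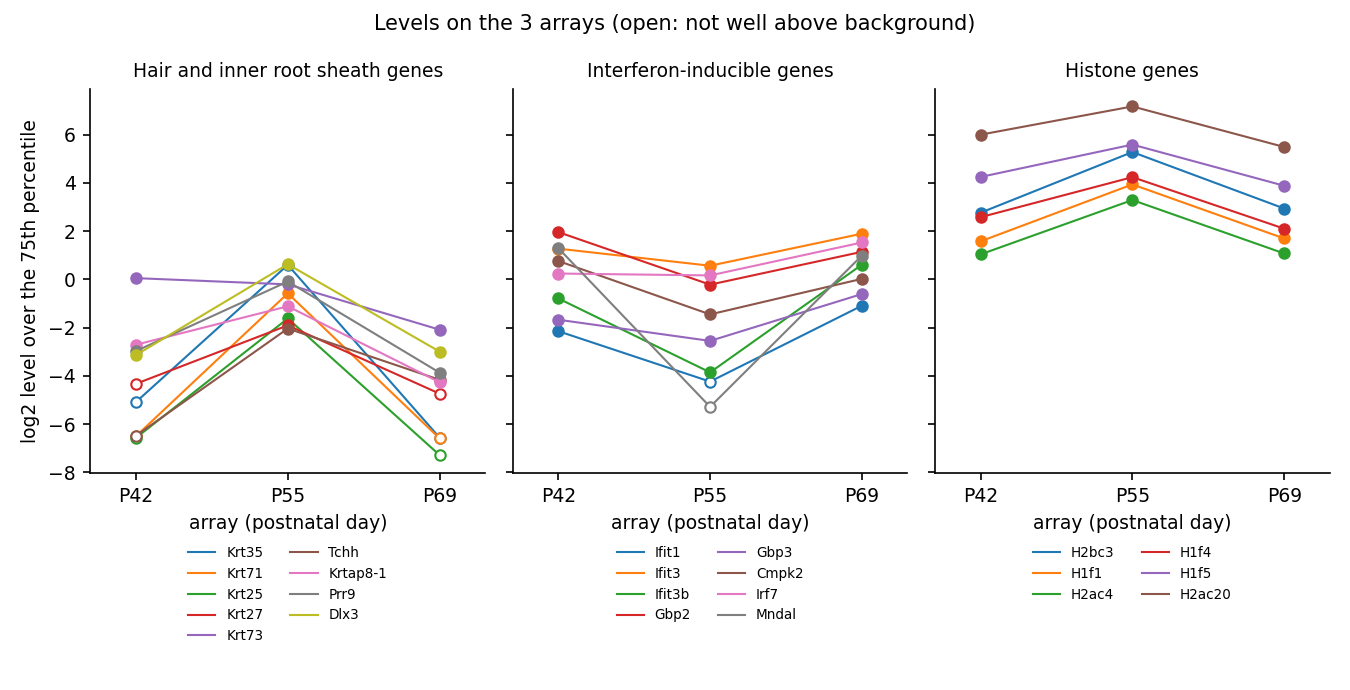
Log2 level over the 75th percentile (y axis) on the P42, P55 and P69 arrays (x axis) for 9 genes of the hair and inner root sheath, 8 interferon-inducible genes and 6 histone genes; each line is 1 gene and each point 1 array, open where the probe was not well above background. The hair genes and histones were highest on P55 except Krt73, and the interferon-inducible genes were lowest there, with Mndal at -5.28 on P55 and 0.99 on P69.

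Interferon-stimulated genes were higher on P69 more often than lower. Of 30 with a value, 9 were at least 2-fold higher (30.0%, compared to 7.85% of all genes) and 1 was lower, with a median of 0.54. Ifit1, an inhibitor of viral translation, stood at -2.15 on P42, was not above background on P55 (-4.24) and stood at -1.09 on P69 (at least 2.95). Gbp3 stood at -1.67, -2.55 and -0.61 (1.94) and Gbp2 at 1.96, -0.22 and 1.14 (1.36), both guanylate-binding proteins of defence against intracellular microbes. Cmpk2 stood at 0.76, -1.45 and 0.02 (1.47), Irf7, a factor that amplifies interferon production, at 0.24, 0.16 and 1.53 (1.37), and Ifit3 at 1.27, 0.57 and 1.89 (1.33). Trim30a (1.31), Rtp4 (1.30) and Rsad2 (1.05) completed the 9. Other genes of the same response did not follow. Stat2 (0.15), Isg15 (0.30) and Oas1a (-0.10) hardly differed, Usp18 (-0.67) and Oas3 (-0.78) were lower, and Ifi44l was 2.01 lower at a dim level (-2.51 on P55 and -4.52 on P69). The list's median exceeded that of all genes by between 0.65 and 0.72 over the 6 scalings. Ifit3 and Ifit3b are near-identical copies, and the share of each in its probe's signal is uncertain.

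The promoters of the interferon-stimulated genes that differed and of some that did not are shown for the core of the interferon-stimulated response element, to which the factors of the response bind. The letters searched were GAAANNGAA on both strands, in windows of 300 bases around the start of each gene (RefSeq, GRCm38.p6). Of 24 listed genes with a window, 15 held it, and 16 of their 30 windows did (53.3%), compared to 8.56% of all 32851 windows. It was present in 6 of the 8 genes with a window that were at least 2-fold higher on P69, and in the 1 that was lower. The stretches below run 5′ to 3′ along the gene's strand before its start, with matches in capitals on either strand (overlapping matches run together).
Ifit1, chr19:34640760-34640833, + strand: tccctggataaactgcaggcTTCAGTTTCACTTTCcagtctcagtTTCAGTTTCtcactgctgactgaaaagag
Ifit3, chr19:34583354-34583455, + strand: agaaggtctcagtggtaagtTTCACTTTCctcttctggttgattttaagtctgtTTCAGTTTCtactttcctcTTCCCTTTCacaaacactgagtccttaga
Gbp3, chr3:142559980-142560034, + strand: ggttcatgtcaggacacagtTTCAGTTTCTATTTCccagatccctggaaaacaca
Gbp2, chr3:142620585-142620633, + strand: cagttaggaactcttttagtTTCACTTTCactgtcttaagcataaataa
Rsad2, chr12:26456543-26456591, - strand: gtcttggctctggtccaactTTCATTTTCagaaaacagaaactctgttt
Isg15, chr4:156200856-156200916, - strand: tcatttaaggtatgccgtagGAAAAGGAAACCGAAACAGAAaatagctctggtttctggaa
Oas3, chr5:120777700-120777754, - strand: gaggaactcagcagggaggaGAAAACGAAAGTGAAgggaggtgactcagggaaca
Isg15 and Oas3, which were not higher by 2-fold on P69, held the letters as did Ifit1 and Ifit3, so their presence did not separate the genes that differed from those that did not. A match is a description of letters and not a site shown to be bound.

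Families of interferon-inducible and lymphocyte genes, chosen after their values were seen, were mostly lowest on P55. All 10 guanylate-binding protein genes with a value were above 0, 6 of them by 2-fold (60%, compared to 7.85% of all genes), with a median of 1.23. Of these, Gbp5, Gbp6 and Gbp8 are bounds that had a value only through P69, the array on which they were high. The median over the measured members was 1.13. Gbp7 stood at 0.81 on P42, -2.17 on P55 and -0.44 on P69 (1.73) and Gbp9 at 0.04, -2.22 and -1.09 (1.13). Of 8 genes of the p200 family, 4 were higher (50%, compared to 7.85% of all genes) and 1 lower (12.5%, compared to 11.3%) by 2-fold. The higher ones were Ifi204 at 2.13, 0.53 and 2.02 (1.49), Ifi202b at 1.99, 0.85 and 2.01 (1.16), and Mndal and Ifi211. Mndal and Ifi211 are bounds that had a value only through P69, and Ifi209, a bound through P55, was at least 2.24 lower. In this family Aim2 was lowest on P42 (-3.08, -0.87 and -0.37), and Ifi209 (-2.16, -2.57 and -4.81) and Ifi214 (-2.42, -3.13 and -3.40) were lowest on P69. Of 7 Gimap GTPases of lymphocytes, 3 were higher by 2-fold (42.9%, compared to 7.85% of all genes), with Gimap4 at 0.73, -1.52 and 0.90 (2.42) and Gimap6 at 2.47, 1.47 and 2.74 (1.27). The other was Gimap8, which like Gimap9 is a bound that had a value only through P69.

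The Ly49 receptors were divided. Of 11 Klra genes, 5 were higher by 2-fold on P69 (45.5%, compared to 7.85% of all genes), Klra6, Klra8, Klra9, Klra10 and Klra17. Another 2 were lower (18.2%, compared to 11.3%), Klra5 (-1.51) and Klra4 (at least -1.44). Klra6 and Klra10 (at least 3.06 higher) had a value only through P69, the array on which they were high, and Klra4 only through P55. Klra9 stood at 2.25, -1.22 and 1.84. Of 11 genes of the other Klr receptors, which natural killer cells also carry, none was higher by 2-fold and Klri1 was lower (-2.58). Klrb1 stood at 2.25, 1.72 and 1.15 and Klrd1 at -3.73, -2.59 and -3.09. The Klra genes are a cluster of near-identical copies that differs between mouse strains, and probes cannot be assigned to a single copy with certainty.

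Some complement genes were also higher on P69. Of 12 with a value, 4 were at least 2-fold higher (33.3%, compared to 7.85% of all genes) and none was lower by that much (median 0.35). Cfb, which drives the alternative pathway, stood at 1.32 on P42, 1.04 on P55 and 2.80 on P69 (1.76), C4b at 4.17, 2.85 and 4.23 (1.39), and Serping1, the C1 inhibitor, at 1.49, 0.66 and 1.82 (1.17, and 0.67 by its other probe). The C1q chains did not follow, with C1qa at 0.00, C1qb at -0.11 and C1qc at -0.43. The median of the list exceeded that of all genes by between 0.49 and 0.83 over the 6 scalings.

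Genes for the uptake of apoptotic cells were mixed. Of 18 with a value, Mertk, Timd4, Pros1 (1.36), which bridges Mertk to dying cells, and Dock1 (1.01) were higher by 2-fold, and Mfge8, another bridging protein, was lower at 4.57, 7.19 and 6.06 (-1.13), but within 2-fold after loess (-0.26). Of 13 scavenger receptors, Scara5 (1.82) and Colec12 (1.74) were higher. In iron handling, Slc40a1, the iron exporter ferroportin, stood at -2.36, -3.84 and -1.58 (2.25), Cp, the plasma ferroxidase ceruloplasmin, at 0.38, -1.94 and 0.18 (2.12), and Ncoa4, the receptor for ferritin turnover, at -0.83, -0.69 and 1.08 (1.77). The ferritin chains Fth1 and Ftl1 were each 0.93 lower on P69, at the bright end where most probes were lower, and at -0.11 and -0.06 after loess.

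Markers of vessels lay mostly above 0. Of 12 endothelial genes, 11 were above 0 and 3 were at least 2-fold higher on P69 (median 0.54), compared to 7.85% of all genes. Kdr, the main receptor for vascular endothelial growth factor, stood at 1.41 on P42, 0.14 on P55 and 1.55 on P69 (1.41), Cdh5 of endothelial junctions at 0.05, -0.24 and 1.07 (1.31), and Emcn at 1.89, 0.87 and 1.96 (1.09). Vwf was the member below 0 (-0.50). Fibroblast genes were divided about 0 (8 of 15 above it, median 0.05), with Lum (1.66) and Dpt (at least 2.10) higher by 2-fold (13.3%) and Col1a1 (-0.42) and Col1a2 (0.05) within it. The endothelial markers moved with the complement and interferon-inducible genes, and their part in those differences was not tested.

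Replication-dependent histone genes were lower on P69. Of 13 with a value, none lay above 0 and 11 were at least 2-fold lower (median -1.64, compared to 11.3% of all genes lower by 2-fold). H2bc3 stood at 2.76 on P42, 5.28 on P55 and 2.94 on P69 (-2.34), H1f1 at 1.58, 3.94 and 1.70 (-2.24), and H2ac4 at 1.04, 3.29 and 1.07 (-2.21). H1f4 followed at -2.14, H1f5 at -1.71 and H2ac20 at -1.68 (loess -0.84), while H2bc4 hardly differed (-0.06). The 6 histone genes shown in the plot of levels on the 3 arrays were highest on P55. Many of the probes are bright, so part of the difference went with brightness: the loess median was -1.04, with 7 genes lower by 2-fold. The list stayed below the median of all genes by between 1.04 and 1.50 over the 6 scalings. Histone genes share long runs of coding sequence, and single copies are uncertain.

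Other genes of dividing cells moved less. Of 26 genes of mitosis with a value, 6 were lower by 2-fold (23.1%, compared to 11.3% of all genes) and 1 was higher (3.85%, compared to 7.85%), with a median of -0.35. Cdc20 stood at -0.28, 1.75 and 0.54 (-1.21), Plk1 at -2.62, 0.08 and -1.12 (-1.20) and Aurka at -2.42, 0.10 and -0.97 (-1.07), but Mki67 was within 2-fold (-0.42) and Nuf2 at least 1.24 higher. Of 28 genes of DNA replication, Cdc45 was lower (-1.21) and Prim1 higher (1.12) by 2-fold (median -0.41).

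Genes of cholesterol synthesis tended to be lower on P69. Of 18 with a value, 7 were at least 2-fold lower (38.9%, compared to 11.3% of all genes) and none was higher (median -0.85). After loess 5 were lower and 1 was higher (median -0.48). Fdps, the farnesyl diphosphate synthase, stood at -0.15 on P42, 2.50 on P55 and 0.70 on P69 (-1.80). Mvd (-1.29), Nsdhl (-1.06), Srebf2, the transcription factor of the pathway (-1.06, loess -0.57), and Mvk (-1.04) were also lower. Fdft1 was 0.88 higher by its brightest probe (1.18 after loess) and at -0.05 by its other probe.

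**Figure D3:**
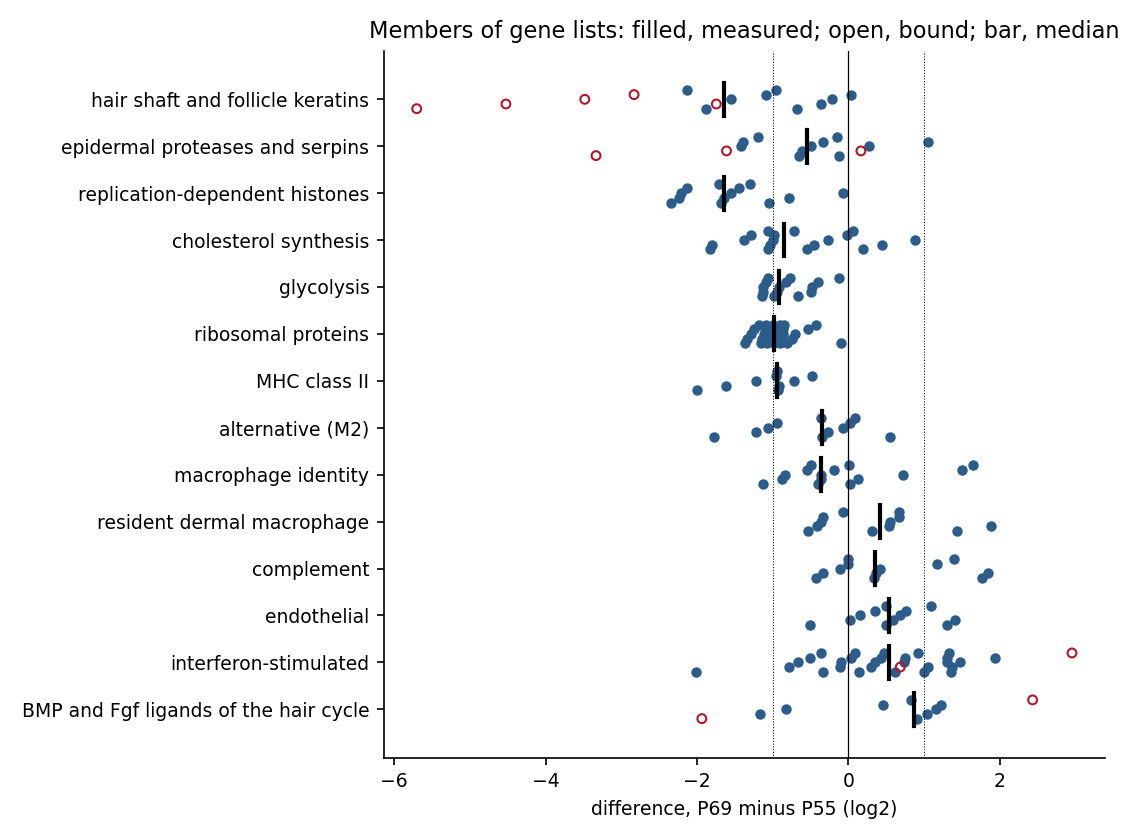
Difference P69 minus P55 (log2, x axis) of each member of 14 gene lists (rows); filled points are measured on both arrays, open points are bounds, and the bar is the list's median. The medians of hair keratins (-1.65, bounds included) and histones (-1.64) lie left of the dotted line at 2-fold lower, and interferon-stimulated genes (median 0.54) spread to the right.

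Lists of abundant transcripts were lower on P69 in a way that depended on the scaling. Of 31 ribosomal protein genes, 13 were at least 2-fold lower and none lay above 0 (median -0.99), with Rps14 at 6.67, 7.46 and 6.09 (-1.37, loess -0.48). After loess the median was -0.19 and none was lower by 2-fold. Of 15 genes of glycolysis, 5 were lower (median -0.92, loess -0.30), among them Tpi1 at 3.20, 4.75 and 3.61 (-1.15, loess -0.56) and Ldha at 5.04, 6.12 and 5.02 (-1.09, loess -0.33), and none by 2-fold after loess. The respiratory chain (30 genes, median -0.74, loess -0.20) behaved alike.

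The MHC class II genes, which present antigen to helper T cells, had a median of -0.94, and of -0.05 after loess. Of 9 genes, 3 were lower by 2-fold (33.3%, compared to 11.3% of all genes). H2-Ob, a chain of the peptide-loading inhibitor, stood at 2.16, 2.46 and 0.47, and stayed lower after loess (-1.85). H2-Aa stood at 8.04, 8.15 and 6.53 (-1.62, loess -0.68) and H2-Eb1 at 6.93, 7.68 and 6.46 (-1.21, loess -0.30). The rest of the genes, Cd74 and H2-Ab1 among them, lay between -0.96 and -0.48.

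**Figure D4:**
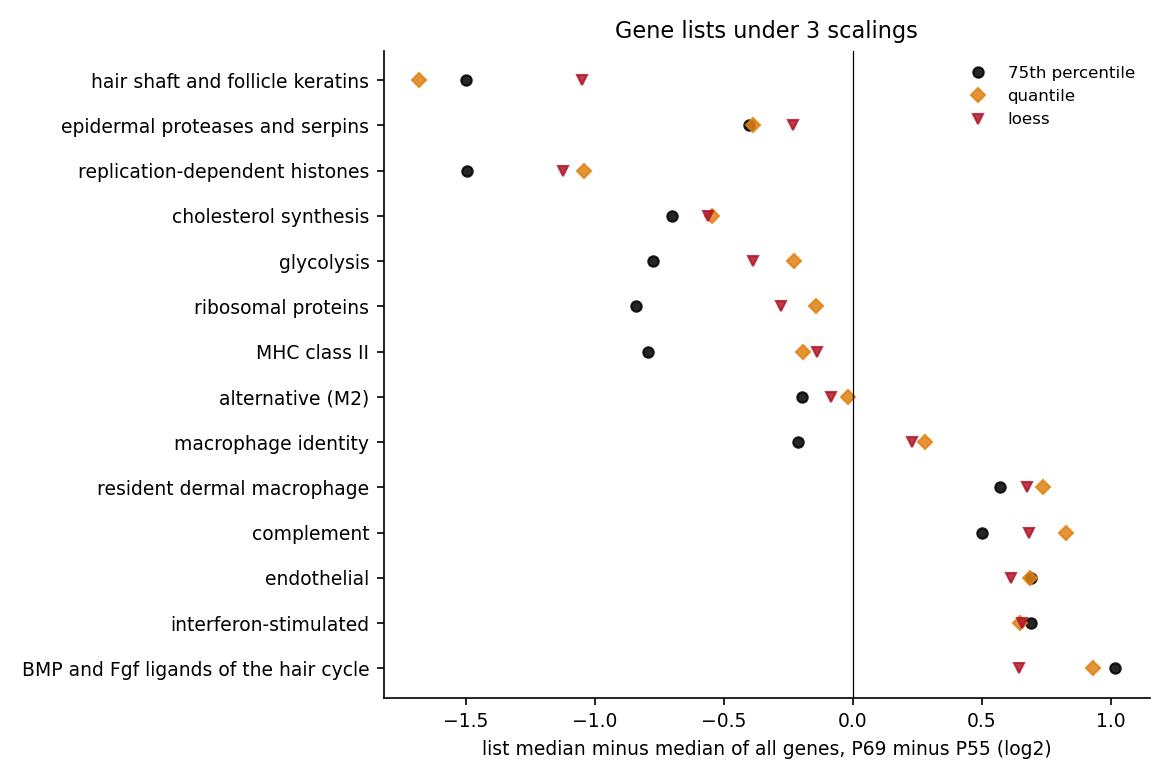
Median difference of each of 14 gene lists minus the median of all genes (log2, x axis) under scaling to the 75th percentile, quantile normalization and loess. Hair keratins and histones stay at least 1.04 below 0 and the interferon-stimulated genes at least 0.65 above it, whereas ribosomal proteins go from -0.84 to -0.14 and macrophage identity genes cross 0.

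Cytokines, chemokines and their receptors differed gene by gene. Il10, which restrains macrophage activation, stood at -0.33 on P42, -1.74 on P55 and -3.51 on P69 (-1.77), and Tnf, a main inflammatory cytokine, at 1.65, 3.84 and 2.48 (-1.36, loess -0.95). Il33, an alarmin, was not above background on P55 and at least 2.04 higher on P69. Of 22 other cytokines and growth factors with a value, 6 were lower by 2-fold (Il10, Osm, Il19 and Il4 measured, Il17a and Il20 as bounds) and 2 were higher, Tslp (1.25) and Vegfa, the growth factor of vessels, at 0.30, -0.25 and 1.66 (1.92). The shares were 27.3% lower and 9.09% higher, compared to 11.3% and 7.85% of all genes. Of 26 chemokines, 5 were higher (19.2%, compared to 7.85% of all genes) and 5 lower (19.2%, compared to 11.3%). Cxcl13, which attracts B cells, stood at -1.81, -4.50 and -1.32 (at least 2.72), Cx3cl1 was 1.38 higher, Cxcl2 1.27, Ccl11 1.25 and Cxcl10 1.00, while Ppbp (-1.82), Ccl17 (-1.22), Ccl22 (-1.06), Ccl8 (-1.05, loess -0.30) and Ccl27a (-1.56, each of its 4 probes lower) were lower. Among 14 chemokine receptors, Ccr1 (1.42) and Ccr3 (1.18) were higher and Ccr7 (-1.91) and Ccr9 (-2.82) were lower. Tlr7, the endosomal receptor for single-stranded RNA, stood at 0.63, -1.73 and 0.59 (2.32, and 0.28 by its other probe), and Tlr3, the receptor for double-stranded RNA, was at least 2.48 lower. Of 11 M2 genes, 3 were lower by 2-fold (Il10, Ccl17 and Ccl22), and of 10 M1 genes, 2 were lower (Ccr7 and Tnf) and 2 were higher (Cxcl10 at 1.00 and Ptgs2 at least 1.89).

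Other cells that the digest could hold gave smaller lists. T cell genes (11 with a value) had 3 members lower by 2-fold (27.3%, compared to 11.3% of all genes), Cd5 (-1.50), Cd247 (-1.45) and Cd3e (-1.12). There was 1 higher (9.09%, compared to 7.85%), Cd8a (at least 1.05). Of 10 genes of Langerhans and dendritic cells, Ccr7 alone was lower by 2-fold, with Cd207, the Langerhans cell lectin, at 3.78, 6.76 and 5.90 (-0.86). The red cell genes Hba-a1 at 3.63, 4.90 and 3.05 (-1.85), Hbb-b2 (-1.30, loess -0.92) and Alas2 (-1.86) were lower in 3 of 4 with a value, and the globin genes have near-identical copies. Of 8 neutrophil genes, Camp was lower (at least -1.59).

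The signals that set the length of telogen were compared next, since the study asked how macrophages act before the follicle grows again. No Wnt ligand differed by 2-fold on the 75th percentile. Of 15 with a value, Wnt3 was the highest (0.80, and 1.04 after loess) and Wnt10a the lowest (-0.75). Wnt10a stood at -6.58 on P42, 0.42 on P55 and -0.33 on P69, and Wnt7b at -6.37, -1.79 and -2.54 (-0.75). On P42 both lay under the lowest level above background of that array (-4.50), so their P42 values are background and not measured levels. Without scaling Wnt10a and Wnt7b turned to 0.15 higher. Among 27 Wnt receptors, antagonists and secretion genes, 6 were higher by 2-fold (22.2%, compared to 7.85% of all genes) and 4 lower (14.8%, compared to 11.3%). The antagonist Sfrp2 stood at -0.21, -0.95 and 1.70 (2.65), whereas the antagonist Wif1 stood at -3.88, -1.28 and -6.05 (at least -3.82). The receptors Fzd6 (1.72), Fzd4 (1.64) and Fzd1 (at least 1.89) were higher, as were Rspo3 (1.15) and Dkk3 (1.01), and Fzd9 (-2.08), Lef1 (-1.29) and Fzd2 (-1.05) were lower.

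Of 10 BMP and Fgf genes of the hair cycle with a value, 4 were higher by 2-fold (40.0%, compared to 7.85% of all genes) and 2 were lower (20.0%, compared to 11.3%), with a median of 0.87. Bmp6, a ligand that holds stem cells at rest, stood at -2.28, -5.51 and -1.61 (at least 2.43), Bmp2 at -1.60, -1.71 and -0.48 (1.23), Fgf18, a ligand of the resting bulge, at -4.06, -3.34 and -2.18 (1.16) and Nog, a BMP inhibitor, at -1.44, -2.80 and -1.77 (1.03). Bmp8b (at least -1.94) and the inhibitor Grem1 (-1.17) were lower. The remaining 11 of the 21 genes were not given a value, since their probes were not above background or gave no bound. Of the study's shortlist of Wnt, BMP, Fgf and cell death genes, 24 of 32 had a value, and Bmp6, Brca1 (at least 1.75), Bmp8b and Traf2 (-1.12) differed by 2-fold. That shortlist was drawn by the study on these samples.

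The core clock differed at single genes. Of 17 genes, Ciart stood at -3.30, -0.97 and -3.11 (-2.14), Npas2 was 1.46 lower, and Per1 stood at 2.23, 3.27 and 2.20 (-1.07, loess -0.73), while Clock (1.71) and Hlf (1.35) were higher. Dbp (-0.51), Nr1d1 (-0.53) and Per2 (-0.28) stayed within 2-fold. The hour at which the skin was taken is not given in the sources used here.

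Different probes of the same gene were compared to see how far single probes can be trusted. For 3408 genes with 2 or more probes above background on both arrays, the brightest probe and the mean of the others had the same direction in 2430 (71.3%). Among differences under 0.5 the higher genes had the same direction more often (68.1%) than the lower ones (60.1%), and between 0.5 and 1 the shares were alike (78.3% and 79.9%). Beyond 2-fold the order was the other way. Of genes lower by 1 to 1.5 on the log2 scale by their brightest probe, 197 of 218 had their other probes in the same direction (90.4%), compared to 68 of 96 genes higher by that much (70.8%). Beyond 4-fold, 11 of 11 lower genes and 11 of 16 higher genes had the same direction. In the higher genes the brightest probe differed by a median of 2.30 and the others by 0.62. In the lower genes these medians were -2.38 and -0.76. Large differences in both directions, chosen by the brightest probe, were thus much smaller by the other probes. They differed more between probes of a gene than the spread between spots of a probe would give.

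**Figure D5:**
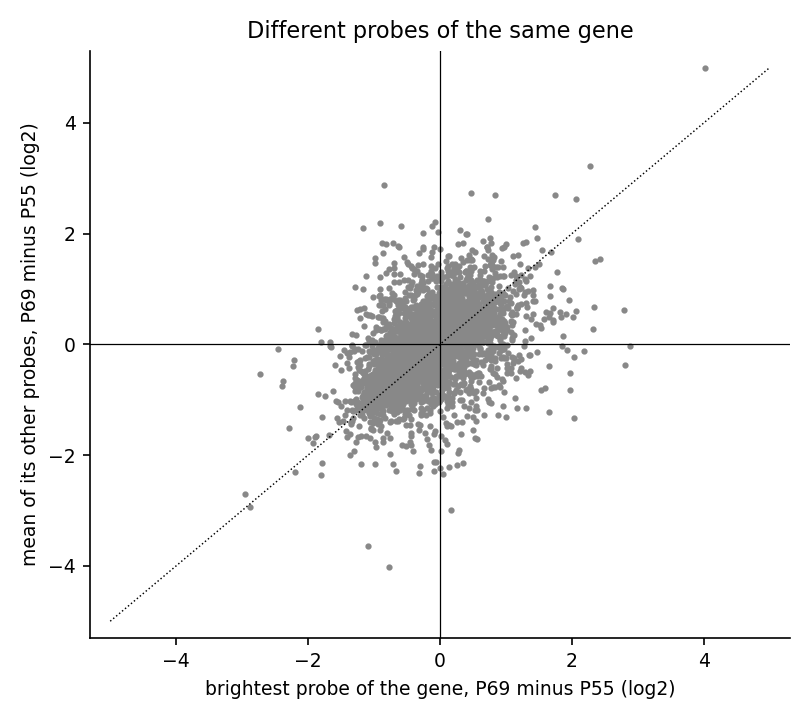
Difference P69 minus P55 (log2) by the brightest probe of a gene (x axis) and by the mean of its other probes (y axis), for 3408 genes with 2 or more probes above background on both arrays; each point is 1 gene and the dotted line marks equal values. Of these, 2430 lie in the quadrants of equal direction, and points far to the right often lie near or below 0 on the y axis.

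The P42 array was set beside both. Of 13078 genes above background on all 3 arrays, P42 lay nearer to P69 in 7546 (57.7%) and nearer to P55 in 5532. Among genes at least 2-fold lower on P69, P42 lay nearer to P69 in 822 of 1205 (68.2%), and among those at least 2-fold higher, in 431 of 806 (53.5%). These shares use the same P55 and P69 values that chose the genes, and are given as counts only.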

How the data were processed

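Sorted macrophage RNA was amplified, labelled with Cy3 and hybridised to 1-colour Agilent mouse arrays, all on 1 slide, per the study's methods and file headers. The authors deposited scanner output of Feature Extraction 10.7.3.1, whose processed intensity is background-corrected by that software (array design on mm9), and a log2 value table, centred by the authors on the median of the 3 arrays per probe and limited to probes that varied by 1 or more on the log2 scale. Its direction for P55 and P69 opposes the scanner files.

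Log2 processed intensities of noncontrol probes were centred on each array's 75th percentile, outlier spots were dropped and spots of a probe averaged. A probe had to be well above background on at least 1 array, and with 1 signal below it a bound was given. Probes were named through RefSeq accessions (GRCm38.p6; 26056 probes, 19752 genes), a gene by its brightest probe. Named are the 15 largest measured differences in each direction whose probes moved alike, the 5 largest bounds in each direction, up to 6 members of lists with at least 25% of members past 2-fold (17 of 57 lists), the sort markers and the study's shortlist, and others chosen after their values were seen. Members and lists were chosen with earlier results of these data known. Of 952 listed genes, 923 matched. Alternatives covered scaling, background, filters, outlier spots, the value table, bounds, probes and thresholds (limma 3.58.1 for normexp with offset 50; Python 3.11.15 for the rest). Scripts were tested on simulated data. The number of arrays, 1 per stage, limits the precision. Some members counted in the lists are not reported here by name.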

Additional observations from a re-analysis of the deposited data

How the results depend on the processing

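No paired analysis and no analysis leaving out a replicate was possible because each stage had 1 array. Each alternative below changed 1 choice, except that leaving out the filter went with a plain ratio and that the value table carries the authors' own filter and centring. With the loess scaling, 44 probes were at least 10-fold higher and 31 lower on P69, and 1777 genes at least 2-fold higher and 969 lower. Without scaling these were 156, 12, 5589 and 296. With the 75th percentile of probes above background on both arrays, 37 probes were at least 10-fold lower. With normexp background 4 probes were higher and 8 lower by 10-fold and 471 genes higher by 2-fold. With probes above background on both arrays required, 4 and 16 probes passed. A plain ratio in place of the bound gave 270 and 533 probes and 1908 higher genes, the filter on positive and significant signals 270 and 533 probes and 2058 higher genes, a plain ratio without any filter the same 270 and 533 probes and 2058 higher genes, and the values of the authors' table gave 270 and 536 probes and 1898 higher genes, so the 10-fold counts rest on the treatment of dim probes. A 4-fold threshold left 155 higher and 257 lower genes, a 5-fold threshold gave 196 and 414 probes, and counting genes gave 8 and 29. Assigning the arrays by the value table turned every sign, giving 64 higher and 16 lower probes, with medians of 1.65 for hair keratins, 1.64 for histones, 1.57 for red cell genes and -0.54 for interferon-stimulated genes.

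In the other settings the 3 lists taken as main results kept their direction. They were not chosen by rank, since the BMP and Fgf genes (median 0.87) and red cell genes (-1.57) lay further from 0 than the interferon-stimulated genes. The median of the hair keratins was -1.48 on the percentile over probes above background on both arrays, -0.96 after loess, -0.65 without scaling, -1.39 with normexp, -0.96 with both arrays above background, -1.17 with positive and significant signals, -1.13 without filter and -2.13 in the value table. That of the histones was -1.48, -1.04 after quantile normalization, -1.04 after loess and -0.74 without scaling. That of the interferon-stimulated genes was 0.70, 0.74 after loess, 1.44 without scaling and 0.86 in the value table. All 113 genes named by the rule that differed by 2-fold kept their sign over the 6 scalings, which moved the median of all genes by up to 0.87 (without scaling). They were chosen for a difference of at least 1 on the log2 scale, which a constant shift of that size cannot turn. The count was thus largely fixed by the choice and is no support for these genes. Camp, Ccl17, Cxcl10, Dkk3, Fzd2, Grem1, Il4, Il20, Klra4, Krt75, Krtap19-5, Mvk, Npas2 and Serpinb12, given as past 2-fold, lay within it after loess. Signal over background also limits single genes, since 12 of 16 and 48 of 64 probes past 10-fold are bounds.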

Other observations

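Olfactory and vomeronasal receptor genes, which encode odour and pheromone receptors of the nose, had mostly dim probes. Of 1057 olfactory receptor genes on the array, 184 had a value, of which 57 were at least 2-fold lower and 13 at least 2-fold higher on P69 (median -0.22). After loess these were 29 and 40 (median 0.19), so their direction was set by the scaling. Of 222 vomeronasal receptor genes, 68 had a value, 21 lower and 3 higher (median -0.56), and 15 and 13 after loess. Of 41 Hox genes, 25 had a value, with 4 higher and 4 lower. These families were chosen after their values were seen.

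Of 24 keratin-associated protein genes of the hair shaft with a value, 6 were lower by 2-fold and 1 was higher (median -0.35). Krtap31-1 stood at 0.91 on P42, -0.09 on P55 and -2.07 on P69 (-1.98), Krtap16-3 at 0.65, -0.20 and -1.52 (-1.31) and Krtap19-2 at 0.57, -0.40 and -1.63 (-1.23), so in these genes P42 was the highest array, unlike in Krt35, Krt71 and Krt25. Krtap8-1 stood at -2.71, -1.12 and -4.26, Krtap4-7 was above background on P55 alone, and Krtap19-5 was 1.47 lower. Krtap9-5 was the higher member (1.15). Bright members such as Krtap20-2 (4.47, 4.07 and 3.71) and Krtap4-8 (3.31, 3.33 and 3.02) stayed within 2-fold. Copies of this family are near-identical, and single members are uncertain.

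Promoter letters of other groups were counted in the same windows. The letters TTTGAA were in 72.0% of 25 windows of mitosis genes, compared to 17.9% of all windows, with 4 of the 6 genes lower on P69 holding them. The E-box CACGTG was in 30.0% of 20 windows of clock genes, compared to 7.15%, and TGANTCA in 40.0% of 30 windows of suprabasal and cornified keratinocyte genes, compared to 7.81%. TGACGTCA was in 12.5% of 16 windows of immediate early genes, compared to 1.79%, and of the 15 immediate early genes with a value on these arrays 1 was lower by 2-fold and none lay above 0 (median -0.49, loess 0.08).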
